A study of Mus musculus with 21 samples.

Results

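Tuft cells sorted from 3 digestive tissues of the mouse, small intestine, colon and gall bladder, were compared with tuft cells sorted from thymus and trachea. The comparison was chosen by tissue label alone. It took the unweighted mean of the 3 digestive group means minus the mean of the thymus and trachea group means, for every gene. These group means were fitted on the log scale, so a log2 fold change can differ from the ratio of averaged CPM. The comparison used 18 of the series' 21 libraries. There were 3 libraries of small intestine tuft, 4 of colon tuft and 3 of gall bladder tuft, which makes 10 digestive libraries, against 4 of thymus tuft and 4 of trachea tuft. The other 3 libraries, reporter-negative small intestine epithelium (non-tuft), served only as a reference for levels. All mice were naive C57BL6 animals homozygous for Flare25, a fluorescent reporter allele of Il25, so every group carried the reporter. Tuft cells were taken as live (DAPI-), CD45-, EPCAM+ and Flare25+. Digestive and thymus libraries each came from 1 male of 12 weeks. Each trachea library was a pool of 4 mice of 12 to 16 weeks, and pools 3 and 4 were female.

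The tissues also differed in handling, and this split runs along the comparison. EDTA released the epithelium of gut and gall bladder. Thymus went through Liberase, DNase and a Percoll gradient, and trachea through Dispase and trypsin. Sorted cells numbered 35000 to 36000 in small intestine, 13500 to 16000 in colon, 1750 to 2700 in gall bladder, 1350 to 1900 in thymus and 130 to 453 in trachea. Tissue of origin and preparation cannot be told apart here. In bulk libraries such as these, fewer cells of a type and less RNA per cell cannot be told apart either.

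Tuft cells are rare chemosensory epithelial cells found in many hollow organs. They share a core programme under the transcription factor Pou2f3. In the taste cascade that they have in common with taste buds, a G protein-coupled receptor acts through gustducin and phospholipase C beta 2 to open the cation channel Trpm5. Digestive tuft cells are known for sensing metabolites of microbes and parasites and for releasing Il25 and leukotrienes, airway tuft cells for bitter sensing and acetylcholine release, and thymic tuft cells for living among the medullary epithelium that presents self antigens.

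Total gene counts per tuft library ranged from 25739248 to 70243068. A count was seen for 15248 to 20294 genes in digestive libraries, 20453 to 23179 in thymus and 14880 to 17824 in trachea. Mitochondrial transcripts took 14.8 to 33.5% of counts in digestive libraries and 4.38 to 10.1% in thymus and trachea, with no overlap, and all 8 that could be tested were called higher in digestive tuft. Levels are given as CPM, a gene's counts relative to library size after scaling by trimmed means (TMM), so they compare a gene between libraries and not genes with each other. Tuft genes bore out the label in all 5 tissues. Pou2f3 averaged 188 to 1076 CPM in the tuft groups against 12.5 in non-tuft cells, and Dclk1, the usual tuft marker kinase, 892 to 3350 CPM against 26.4. Principal components were taken from the most variable genes. On the first, with 39.1% of the variance, digestive libraries lay from -98.5 to -22.2 and thymus and trachea libraries from 22.8 to 120.6. The second held 33.6% and did not follow the digestive border. On it colon lay from -69.7 to -68.7, thymus from -61.0 to -48.9 and small intestine from -15.25 to -5.87. Gall bladder lay from 20.0 to 50.7 and trachea from 98.4 to 124.6.

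Promoter sequences of 5 genes of digestive tuft are shown because the motifs of 2 gut transcription factor families named below lie in them. They were read from RefSeq on GRCm38.p6 and cover bases 250 to 31 before a RefSeq start of the gene, 5′ to 3′ on the gene's strand. Where a gene had several starts, the first whose bases held the motif was taken. In the first 3, capitals mark the GATA motif AGATAA or its reverse complement, and in the last 2 the HNF4 motif CAAAGNNCA.
Ffar3: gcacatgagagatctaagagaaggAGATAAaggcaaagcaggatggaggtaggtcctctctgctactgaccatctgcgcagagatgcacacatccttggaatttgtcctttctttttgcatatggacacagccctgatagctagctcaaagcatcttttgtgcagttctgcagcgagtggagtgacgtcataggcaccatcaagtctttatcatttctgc
Hnf4a: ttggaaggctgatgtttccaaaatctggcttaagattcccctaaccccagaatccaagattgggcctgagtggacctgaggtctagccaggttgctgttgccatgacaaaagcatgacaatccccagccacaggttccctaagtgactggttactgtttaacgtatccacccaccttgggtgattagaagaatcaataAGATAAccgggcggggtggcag
Nr5a2: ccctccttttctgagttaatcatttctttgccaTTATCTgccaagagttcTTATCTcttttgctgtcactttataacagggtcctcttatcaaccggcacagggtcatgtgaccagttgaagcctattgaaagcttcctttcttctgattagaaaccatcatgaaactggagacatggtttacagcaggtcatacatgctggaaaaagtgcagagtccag
Eps8l3: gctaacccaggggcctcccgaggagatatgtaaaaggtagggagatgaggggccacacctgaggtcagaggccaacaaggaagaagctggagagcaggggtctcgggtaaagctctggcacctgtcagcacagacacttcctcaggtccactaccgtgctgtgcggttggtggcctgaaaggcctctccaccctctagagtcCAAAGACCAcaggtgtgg
Slc26a3: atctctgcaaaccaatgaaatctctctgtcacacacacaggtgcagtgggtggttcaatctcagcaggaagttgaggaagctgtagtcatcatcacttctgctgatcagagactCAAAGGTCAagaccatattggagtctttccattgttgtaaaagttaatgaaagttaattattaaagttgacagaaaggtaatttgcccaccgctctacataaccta
The windows are chr7:30856209-30856428 (minus strand) for Ffar3, chr2:163506607-163506826 (plus) for Hnf4a and chr1:136960479-136960698 (minus) for Nr5a2. Those of Eps8l3 and Slc26a3 are chr3:107876980-107877199 and chr12:31437969-31438188, both on the plus strand. The RefSeq start used for Slc26a3 lies inside the longer span that GENCODE M21 gives the gene, chr12:31390871-31473917. The end of the Hnf4a window overlaps the GENCODE start of Hnf4a. The motifs were searched on both strands in the 250 bases before each RefSeq start, 32851 starts of 27025 genes. A gene counted as holding a motif if any of its starts did, so genes with several starts had more chances. Each motif was searched on its own, so matches of different motifs may overlap. Over the 13379 tested genes with a promoter, 8.12% held AGATAA and 5.81% held CAAAGNNCA. Among genes higher in every digestive tissue (defined below, 144 with a promoter) the shares were 16.0%, or 23 genes, and 11.1%, or 16 genes. Among genes lower in every digestive tissue (273 with a promoter) they were 8.06% and 5.13%. The AP-2 motif GCCNNNGGC, for a factor on the other side of the comparison, was in 22.1% of tested genes and in 20.1% of the lower genes. A match is a run of letters, described here without a test, and not evidence of binding.

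Of 19850 genes tested with edgeR's quasi-likelihood test, 2244 (11.3%) were called higher in digestive tuft and 3920 (19.7%) lower. A call needed an adjusted p (Benjamini-Hochberg over all genes) under 0.05 and a log2 fold change of at least 1 either way. Higher calls made up 36.4% of the total. That split depended on scaling: with library totals only, 1690 genes were higher and 4916 lower, or 25.6% higher, and the median log2 fold change of all genes moved from -0.27 to -0.58. An average over tissues can pass through 1 tissue, so each of the 6 pairs of a digestive tissue with thymus or trachea was also tested. The calls held in all 6 pairs for 196 genes higher (0.987% of genes tested) and 396 lower (1.99%). These pairs share libraries and are not independent. The gene lists below are read against these shares and against the median of -0.27. Every digestive library lay above every thymus and trachea library for 307 genes (1.55%), and below for 361 (1.82%).

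**Figure D1:**
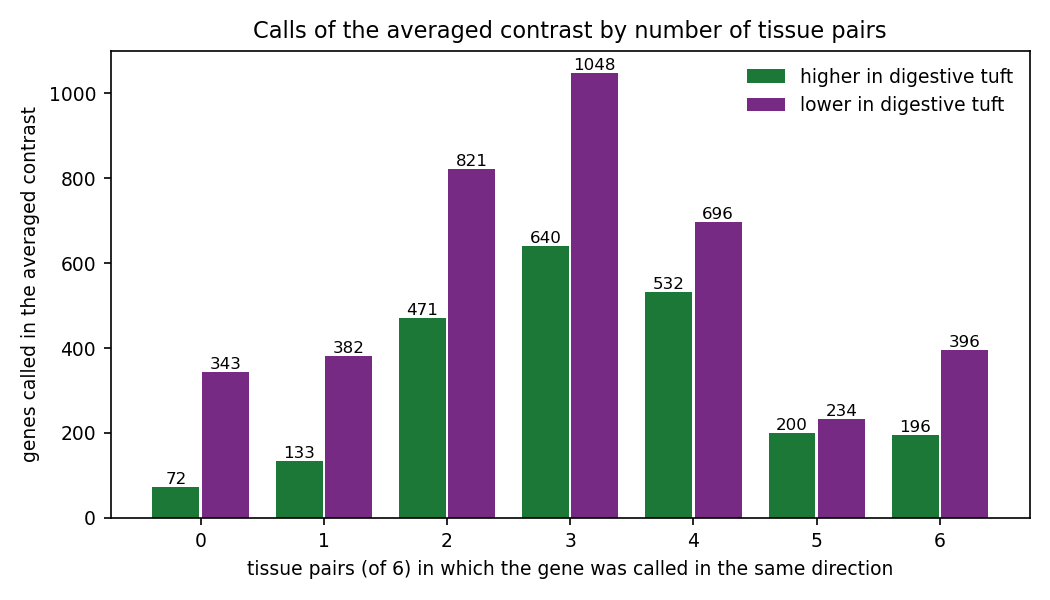
Genes called in the averaged contrast, by the number of tissue pairs (0 to 6) in which they were also called in the same direction; green bars are genes higher and purple bars genes lower in digestive tuft. Most calls lay at 2 to 4 pairs, and 196 higher and 396 lower genes reached all 6.

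Most calls thus rested on some tissues and not on others. Among lower genes, 553 were called against thymus in all 3 digestive tissues and against trachea in none, and 152 showed the reverse. Among higher genes the numbers were 61 and 283. Among the digestive tissues, gall bladder was most often the one without a call: 280 lower and 166 higher genes were called in all 4 pairs without gall bladder and in neither of its own. Colon was missing in this way from 70 lower and 103 higher genes, and small intestine from 58 and 34. Thymus and trachea differed from each other as well, with 4110 genes higher in thymus (20.7%) and 1438 lower (7.24%). Of the 396 genes lower in every digestive tissue, 60 also differed between thymus and trachea, 21 being higher in thymus and 39 in trachea.

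Ffar3 is a receptor for short-chain fatty acids, the products of microbial fermentation (ENSMUSG00000019429, GRCm38 chr7:30854330-30856178, minus strand). It stood at 616, 674 and 599 CPM in small intestine, 111, 144, 121 and 258 in colon and 491, 198 and 195 in gall bladder. In thymus it was at 1.89, 6.76, 6.64 and 12.7 CPM, and in trachea at 3.54, 4.48, 3.34 and 0.635. No digestive library came near the others, and the lowest, colon replicate 1, was still far above thymus replicate 4. The log2 fold change was 6.01 ± 0.44 (SE; edgeR adjusted p = 5.3e-09), and 4.36 in the smallest of the 6 pairs. Non-tuft cells, taken from small intestine only, had 6.42 CPM.

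Alox15, the 12/15-lipoxygenase that oxygenates arachidonic and linoleic acid (ENSMUSG00000018924, chr11:70344152-70352031, minus strand), ran the other way. Thymus libraries had 77.6, 129, 90.8 and 115 CPM and trachea libraries 133, 112, 24.0 and 106. Small intestine had 1.40, 1.15 and 0.0489 CPM, colon 0.417, 3.50, 3.81 and 0.868, and gall bladder 0.709, 0 and 0.314. The ranges did not overlap, although trachea replicate 3 sat well under the other trachea pools. The log2 fold change was -6.89 ± 0.69 (SE; edgeR adjusted p = 2.8e-07).

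Il10, the anti-inflammatory cytokine (ENSMUSG00000016529, chr1:131019845-131024974, plus strand), was at 55.2, 46.6, 60.0 and 67.1 CPM in thymus and at 14.4, 31.1, 8.04 and 8.26 in trachea. The 10 digestive libraries reached at most 0.595 CPM, with a median of 0.270 and 3 libraries at 0, and held 128 counts in all against 16817 in thymus and trachea. Il10 was thus on the low side in every digestive library, and in thymus above every trachea pool, a difference that was not called (edgeR adjusted p = 0.073). The log2 fold change was -7.36 ± 0.71 (SE; edgeR adjusted p = 1.8e-07), and -8.94 without small intestine replicate 2. For genes near 0 on one side, here and below, the fitted fold depends on how the model treats low counts, so the levels carry the comparison.

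**Figure D2:**
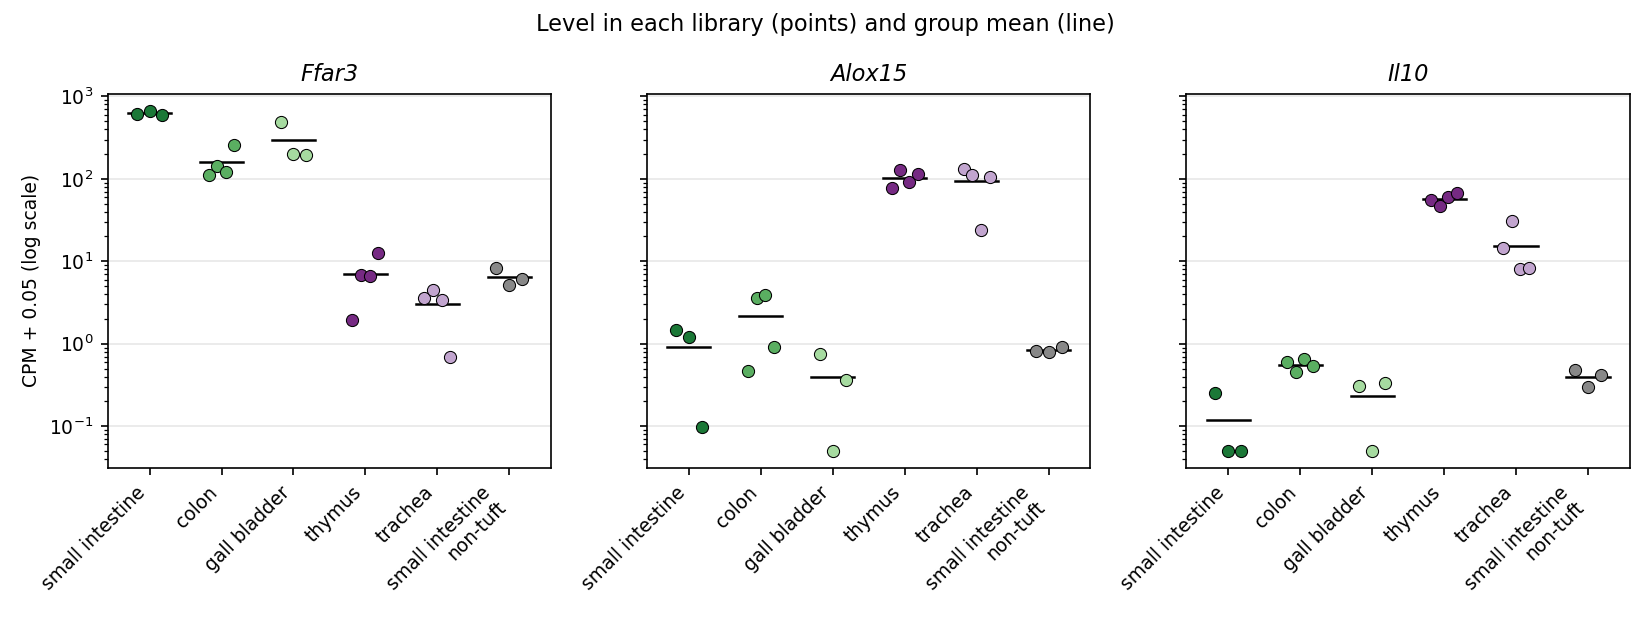
Level of Ffar3, Alox15 and Il10 in each library (points) with the group mean (line); the vertical axis is CPM with 0.05 added, on a log scale. Digestive libraries are all above thymus and trachea for Ffar3 and all below for Alox15 and Il10, and non-tuft cells sit with the low side in each panel.

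Of the 20 tested receptors for microbial metabolites and lipids, 5 were called higher and 4 lower, and Ffar3 was the sole one higher in all 6 pairs (median log2 fold change 0.86, against -0.27 for all genes). Gpr35, an orphan receptor responsive to kynurenic acid, averaged 20.1 ± 7.45 CPM in small intestine, 61.2 ± 11.03 in colon and 61.5 ± 40.3 in gall bladder (SD; n = 3, 4 and 3), against 5.62 ± 6.24 in thymus and 0.229 ± 0.253 in trachea (n = 4 each). Libraries overlapped through thymus replicate 2 at 14.8 CPM, and 5 of 6 pairs were called. Ffar2, the other short-chain fatty acid receptor, was called higher (log2 fold change 3.60 ± 0.98, SE; edgeR adjusted p = 0.0073; 4.69 without trachea replicate 1) at levels of no more than 6.97 CPM in any tuft library. Its call was lost without colon (2.71 log2, edgeR adjusted p = 0.0823) and against thymus alone (2.88 log2, edgeR adjusted p = 0.0805). Its 14.4 CPM in non-tuft cells exceeded all of them. Hcar2, which binds niacin and butyrate, was lower at 0.105 to 3.46 CPM in the digestive means against 27.6 ± 2.77 in thymus and 21.6 ± 34.9 in trachea, a tracheal mean raised by replicate 1 at 73.7 CPM.

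The average hid opposite tissues for other receptors. The calcium-sensing receptor Casr was called lower (log2 fold change -3.29 ± 0.40, SE; edgeR adjusted p = 2.8e-06), yet gall bladder libraries had 80.0, 276 and 75.1 CPM, more than thymus at 25.7 to 53.8. Small intestine had 2.19 to 3.78 CPM and colon 0.224 to 0.384, which carried the call, and with the libraries treated as 2 groups Casr was at -0.21 log2 (edgeR adjusted p = 0.915). Sucnr1, the succinate receptor through which protists activate small intestinal tuft cells, was at 24.1 ± 4.55 CPM in small intestine and 66.6 ± 23.3 in trachea, but at 2.72 ± 1.98 in colon, 0.468 ± 0.432 in gall bladder and 3.25 ± 1.85 in thymus. It was called lower on average (-2.32 ± 0.44 log2, SE; edgeR adjusted p = 0.00041; -0.20 against thymus alone, edgeR adjusted p = 0.811) in a pattern that does not follow the digestive border.

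Taste receptors were mostly lower in digestive tuft: of 32 tested bitter, sweet and umami receptors, 26 were called lower, 13 of them in all 6 pairs, and none higher (median log2 fold change -6.82). Summed over 38 receptors, digestive libraries had 2.85 to 62.4 CPM, thymus 258 to 397 and trachea 337 to 1076. The bitter receptors are near-identical in places, and reads of paralogs may have been split by the authors' counting. The 26 calls are therefore not 26 independent measurements. Tas2r108 had 41.8, 49.0, 39.7 and 36.0 CPM in thymus and 100, 206, 280 and 256 in trachea, and at most 0.812 in any digestive library. Tas2r138, the bitter receptor for phenylthiocarbamide-like compounds and bacterial signals, averaged 29.98 ± 6.12 CPM in thymus and 23.6 ± 15.0 in trachea, and at most 1.67 in a digestive library. Tas2r137 averaged 22.1 ± 9.12 and 38.6 ± 38.4 CPM, with trachea spanning 4.30 to 90.6, and at most 0.450 in digestive tuft. Tas2r118 (12.8 ± 4.32 and 11.8 ± 10.9 CPM) and Tas2r116 (2.88 ± 0.727 and 12.3 ± 12.5) were similar, and Tas2r116 gave 8 counts in the 10 digestive libraries together.

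Tas1r3 encodes the shared subunit of the sweet and umami receptors. Gall bladder had 29.8, 11.8 and 54.5 CPM, small intestine 12.0, 5.78 and 4.45 and colon 1.55, 10.9, 5.89 and 5.05. Thymus had 100 to 167 CPM and trachea 205 to 658. It was lower in all 6 pairs without overlap (-4.46 ± 0.38 log2, SE; edgeR adjusted p = 4.2e-08).

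Downstream of the receptors, of 20 tested taste transduction genes, 9 were called lower, 4 of them in all pairs, and 1 higher (median -0.65). Gnat3, the gustducin alpha subunit, had 55.9, 33.5 and 18.4 CPM in small intestine, 66.7, 114, 95.0 and 105 in colon and 16.4, 5.23 and 28.4 in gall bladder. It had 450, 656, 444 and 742 CPM in thymus and 2673, 6932, 5600 and 6509 in trachea. All digestive libraries were lower (-5.61 ± 0.32 log2, SE; edgeR adjusted p = 2.2e-10), and thymus lay below trachea by -3.14 on the log2 scale (edgeR adjusted p = 3.7e-05). Gnb3, a beta subunit of gustducin, was at 185 ± 16.9 CPM in thymus and 940 ± 327 in trachea and at no more than 3.53 in any digestive library. Rgs21, a regulator of G protein signalling described in taste cells, had 28.6, 58.0, 29.7 and 44.3 CPM in thymus, 8.17, 78.5, 160 and 106 in trachea and at most 0.337 in digestive tuft.

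The gamma subunit Gng13 again set gall bladder apart. Gall bladder libraries had 165, 85.3 and 116 CPM, above thymus (18.8 to 72.8) and above trachea (53.5 to 77.5), whereas small intestine and colon had 0.347 to 2.98. With the 10 digestive and 8 other libraries treated as 2 groups, Gng13 was at -0.51 log2 and not called (edgeR adjusted p = 0.749). The phospholipase gene Plcb2 averaged 901, 459 and 389 CPM in small intestine, colon and gall bladder, and 1120 and 613 in thymus and trachea (-0.68 ± 0.23 log2, SE; edgeR adjusted p = 0.025, under the fold required; -1.17 and called against thymus alone). Trpm5 averaged 4868, 1196 and 5657 CPM against 1122 and 3040 (0.72 ± 0.13 log2, SE; edgeR adjusted p = 0.0002, also under the fold required; 1.38 and called against thymus alone). The receptor channel Itpr3 was at -0.27 ± 0.19 log2 (SE; edgeR adjusted p = 0.28), and at -1.15 and called against trachea alone. Trpm4, a second calcium-activated cation channel, was the gene called higher, at 49.1 to 123 CPM in digestive and 1.45 to 32.0 in other libraries, but non-tuft cells had 102 CPM. The ATP release channel gene Calhm1 gave 1 count in 10 digestive libraries, against 685 in thymus and 924 in trachea, where it was at or above 10 CPM only in thymus replicate 4 and trachea replicates 3 and 4.

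**Figure D3:**
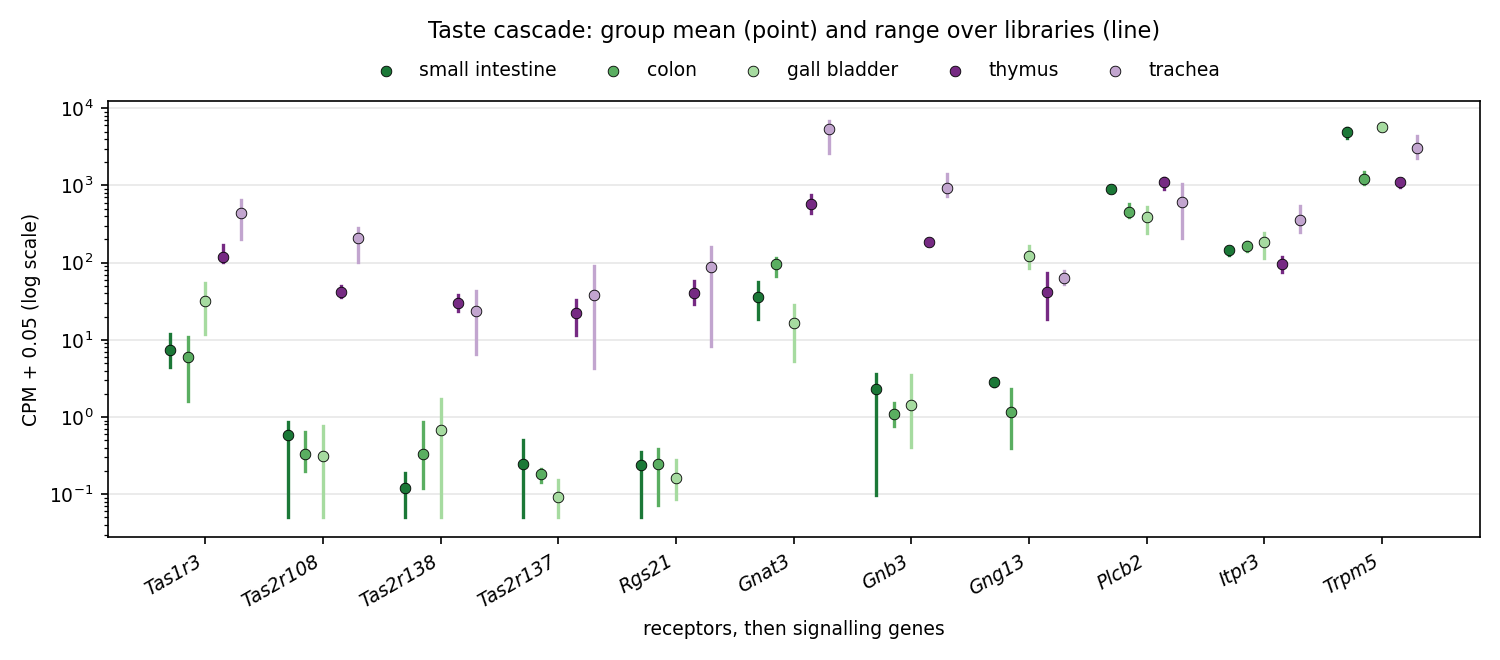
Taste receptors and signalling genes in the 5 tuft groups; points are group means and lines the range over libraries, as CPM with 0.05 added on a log scale. Digestive groups (greens) lie under thymus and trachea (purples) from Tas1r3 to Gnb3, gall bladder rises to the purple groups at Gng13, and the groups intermix at Plcb2, Itpr3 and Trpm5.

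In lipid mediator synthesis, all 6 tested lipoxygenases other than Alox5 were called lower in digestive tuft, Alox15 and Alox8 in all 6 pairs (median log2 fold change -6.05). Their summed level was 0.220 to 12.1 CPM in digestive libraries, 337 to 457 in thymus and 38.7 to 171 in trachea. Alox8 averaged 45.7 ± 15.7 CPM in thymus and 6.22 ± 6.65 in trachea, where replicate 4 was at 0, and at most 0.380 in digestive libraries. Alox12e was a thymus gene, at 156 to 273 CPM there and at most 0.337 in trachea against 4.01 in gall bladder. Alox12 reached 8.09 CPM in gall bladder, within the range of thymus and trachea (0 to 29.3 CPM). Alox8, Alox12, Alox12e and Alox15 all lie on chromosome 11, the last 3 between 70241457 and 70352031.

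Alox5, which opens leukotriene synthesis, averaged 982, 266 and 991 CPM in small intestine, colon and gall bladder and 384 and 829 in thymus and trachea (0.10 ± 0.15 log2, SE; edgeR adjusted p = 0.67). Its partner Alox5ap was at 0.06 ± 0.17 (edgeR adjusted p = 0.85), an average over opposite tissues. It averaged 616, 101 and 1155 CPM in small intestine, colon and gall bladder, and 271 and 534 in thymus and trachea. Without colon it was called higher (1.09 log2, edgeR adjusted p = 0.00057). The prostaglandin D synthase Hpgds was at 0.41 ± 0.20 (edgeR adjusted p = 0.13). Ltc4s, the leukotriene C4 synthase, was at 0.96 ± 0.24 (edgeR adjusted p = 0.0037), just under the fold required and called without colon (2.00 log2) or against thymus alone (1.54 log2), with colon lowest of all groups at 19.3 ± 6.68 CPM. Of the 24 leukotriene and prostaglandin enzymes, 6 were called higher and 6 lower (median 0.25). The prostaglandin E synthase Ptges was lower in all pairs, at 0.0250 to 0.687 CPM in digestive libraries, 63.5 ± 18.2 in thymus and 31.2 ± 37.1 in trachea (-7.61 ± 0.66 log2, SE; edgeR adjusted p = 4.9e-08; -7.005 without trachea replicate 1). Hpgd, which degrades prostaglandins, was the member higher in all pairs (2.02 ± 0.23 log2, SE; edgeR adjusted p = 1.4e-06), at 80.3 to 131 CPM in the digestive means and 121 in non-tuft cells. Ptgs2, the inducible cyclooxygenase, was at 380 ± 34.03 CPM in thymus and 16.8 ± 18.3 in trachea, a mean within the digestive range of 2.04 to 39.9. Ptgs1 did not pass the call (-0.33 ± 0.13 log2; edgeR adjusted p = 0.047).

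Among 29 tested epithelial cytokines and chemokines, 7 were called higher and 6 lower (median 0.32), with Il10 alone called in all 6 pairs. Il25, the tuft cytokine whose locus carries the reporter used for the sort, averaged 24.7 ± 2.38 CPM in small intestine, 9.45 ± 4.74 in colon, 25.3 ± 17.2 in gall bladder, 20.1 ± 13.4 in thymus and 30.9 ± 22.2 in trachea. Colon libraries, at 3.635 to 15.0 CPM, lay below small intestine libraries, at 22.2 to 26.9. All other pairs of tuft groups overlapped, and Il25 was not called (-0.55 ± 0.45 log2, SE; edgeR adjusted p = 0.37). Tgfb3 was lower in 5 of 6 pairs and without overlap, at 39.2 to 74.5 CPM in thymus, 13.8 to 81.6 in trachea and at most 13.3 in digestive libraries, where gall bladder replicate 3 alone passed 1 CPM. Il13, a type 2 cytokine, was at 164 to 287 CPM in thymus and at most 0.365 in trachea and 2.24 in digestive tuft, so its call (-5.05 ± 0.59 log2) was a thymus difference. Il18r1, a receptor subunit for interleukin 18, was lower in all pairs, with 89.2, 54.5, 88.5 and 78.9 CPM in thymus, 67.0, 68.2, 113 and 65.5 in trachea and at most 1.47 in digestive tuft. On the receiving side of Il10, 2 of 11 pathway genes were called higher and 2 lower (median 0.30). Il10rb was at 0.30 ± 0.35 log2 (edgeR adjusted p = 0.57), and Stat3 was lower at -1.14 ± 0.15 (SE; edgeR adjusted p = 1.1e-05), with thymus highest at 592 ± 92.1 CPM and gall bladder (321 ± 48.2) above trachea (210.3 ± 67.3). Against trachea alone the call of Stat3 was lost (-0.34 log2, edgeR adjusted p = 0.178), and without small intestine it was under the fold required (-0.76 log2). Of 12 type 2 cytokine receptors 3 were called lower and none higher (median -1.31), and the Il25 receptor Il17rb was not called (0.21 ± 0.22 log2, edgeR adjusted p = 0.51). Of 12 acetylcholine genes 2 were called each way (median 0.72), and the synthesising enzyme Chat was not (0.76 ± 0.25 log2, edgeR adjusted p = 0.025, under the fold required). Without colon Chat was called higher (1.24 log2, edgeR adjusted p = 0.0067).

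Genes that sense or degrade extracellular ATP were called on both sides. Of 19 tested purine receptors and ectoenzymes, 5 were called higher and 4 lower (median -0.14), and P2rx1 and Entpd8 were higher and Entpd3 lower in all 6 pairs. P2rx1, an ATP-gated channel, had 147, 157 and 151 CPM in small intestine, 31.0, 36.3, 42.5 and 41.6 in colon and 40.2, 78.0 and 47.2 in gall bladder. It had 11.7, 1.79, 4.02 and 0.690 CPM in thymus, 0.337, 0.675, 0.557 and 0.141 in trachea and 2.25 in non-tuft cells. The nucleotidase Entpd8 averaged 96.8, 87.9 and 19.8 CPM in the digestive tissues, 4.64 in thymus and 1.68 in trachea, with 145 in non-tuft cells. The nucleotidase Entpd3 averaged 6.51 ± 1.16 CPM in small intestine, 1.76 ± 0.993 in colon and 54.5 ± 13.9 in gall bladder, against 138 ± 21.3 in thymus and 205 ± 117 in trachea (-4.36 ± 0.29 log2, SE; edgeR adjusted p = 1.5e-09).

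Transporters and metabolic enzymes of absorptive epithelium came next, and most were higher in digestive tuft. For short-chain fatty acid uptake and ketone synthesis 10 of 14 genes were called higher and 2 lower (median 1.85), and for bile acid sensing and transport 11 of 16 higher and 2 lower (median 2.45). Slc26a3, the chloride-bicarbonate exchanger whose RefSeq promoter is shown above, was at 117, 95.9 and 109 CPM in small intestine, 608, 486, 534 and 644 in colon and 45.4, 46.5 and 78.2 in gall bladder, against at most 6.06 elsewhere (6.97 ± 0.40 log2, SE; edgeR adjusted p = 2.3e-10). Slc9a3, the sodium-proton exchanger NHE3, ranked first among higher genes by its smallest pair. Its digestive libraries had 40.8 to 149 CPM, thymus 0.317 to 4.06 and trachea 0.155 to 1.32 (6.32 ± 0.58 log2, SE; edgeR adjusted p = 9.9e-08; 6.93 without thymus replicate 1). The monocarboxylate transporter Slc16a1 was called in 4 of 6 pairs, and gall bladder ran from 0.203 to 29.4 CPM. The bile acid receptor Nr1h4 averaged 24.1, 67.8 and 6.73 CPM in the digestive tissues, 1.01 in thymus and 0.0646 in trachea, and the exporter Abcc3 298, 315 and 397 CPM against 103 and 70.1. The vitamin D receptor Vdr was higher on average but was at 88.6 ± 24.3 CPM in gall bladder against 172 ± 46.7 in thymus. Also among the rule-named genes, the retinol transporter relative Stra6l ran from 195 to 352 CPM in digestive and 0.282 to 8.16 in other libraries, and the carbonic anhydrase Car9 from 41.9 to 200 against 0 to 3.68. The mitochondrial carrier Slc25a34 ran from 5.47 to 64.2 CPM against 0.0843 to 1.78, its lowest digestive value being gall bladder replicate 1. Sema4g, a transmembrane semaphorin, ran from 1525 to 1975 CPM in digestive libraries, 40.9 to 64.3 in thymus and 1.02 to 15.6 in trachea. B4galnt2, a glycosyltransferase of the gut mucosa, ran from 45.05 to 174 CPM against 0.613 to 4.26.

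Transcription factors divided by origin. Of 29 gut and biliary factors, 21 were called higher in digestive tuft and 1 lower, with 5 higher in all 6 pairs (median 2.69). Of 27 tested thymic and airway factors, 22 were called lower and 1 higher, with 6 lower in all pairs (median -4.34). Hnf4a, a nuclear receptor that drives enterocyte and hepatocyte genes, had 446, 526 and 546 CPM in small intestine, 755, 630, 981 and 798 in colon and 522, 197 and 134 in gall bladder. It had 14.3, 13.1, 15.8 and 4.79 CPM in thymus and 6.09, 2.999, 3.40 and 2.37 in trachea (6.12 ± 0.34 log2, SE; edgeR adjusted p = 1.7e-10). Non-tuft cells had more than the small intestine tuft libraries, at 909 CPM. Gata6, a zinc finger factor of endoderm, ran from 45.3 to 106 CPM in digestive libraries and from 0.176 to 3.74 in the others. Nr5a2, the nuclear receptor LRH-1, had 63.6, 35.2 and 39.2 CPM in small intestine, 104, 130, 93.3 and 103 in colon and 92.4, 145 and 239 in gall bladder, against at most 1.82 elsewhere (7.26 ± 0.54 log2, SE; edgeR adjusted p = 6.9e-09). Tcf7l2, the Wnt effector, was also higher in all pairs (2.47 ± 0.31 log2).

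Some gut factors were not common to the 3 tissues. Cdx2, the intestinal homeobox factor, averaged 57.7 and 82.2 CPM in small intestine and colon and 0.331 in gall bladder, under thymus at 1.195. The pioneer factor Foxa1 was the gut factor called lower: trachea had 647 ± 372 CPM, colon 226 ± 46.6, thymus 77.3 ± 9.12, small intestine 43.1 ± 15.6 and gall bladder 1.22 ± 1.53. Its call was lost with the libraries treated as 2 groups (-1.85 log2, edgeR adjusted p = 0.172). Sox9 was not called (-0.07 ± 0.15 log2, edgeR adjusted p = 0.79). Among 18 posterior Hox genes 5 were called higher and 3 lower (median 1.14). Among digestive tissues Hoxb13 was a colon gene, at 34.8 to 92.9 CPM in colon and at most 0.248 in the other digestive libraries. Its call was lost without colon (0.50 log2, edgeR adjusted p = 0.416) and against thymus alone (0.02 log2, edgeR adjusted p = 0.972). Of 13 anterior Hox genes 6 were called lower and none higher (median -1.78).

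On the thymus and trachea side, developmental factors ranked among the first genes. Pax9, a factor of the pharyngeal pouches from which the thymus arises, had 44.3, 41.0, 54.5 and 57.7 CPM in thymus and 35.4, 24.5, 18.2 and 92.0 in trachea, and at most 0.424 in a digestive library (-8.48 ± 0.70 log2, SE; edgeR adjusted p = 2.6e-08). The homeobox gene Six4 averaged 80.5 ± 18.9 and 103 ± 41.1 CPM in thymus and trachea against at most 6.40 in digestive tuft, in colon replicate 4. Eya1, a transcriptional coactivator, was at 278 ± 33.1 CPM in thymus and 143 ± 71.0 in trachea, but gall bladder had 19.4, 79.5 and 89.5. Tfap2a (AP-2 alpha) had 23.8, 14.5, 19.6 and 24.7 CPM in thymus and 38.3, 44.8, 20.5 and 4.62 in trachea, and 34 counts in the 10 digestive libraries together. Dmrt2 was at 27.4 to 37.4 CPM in thymus and 86.1 to 137 in trachea and at most 0.812 in digestive tuft. Trp63 (p63), the factor of basal and stratified epithelium, averaged 116 ± 13.4 CPM in thymus and 26.6 ± 34.6 in trachea, where the 4 pools ran from 1.76 to 75.9. Irx2 (2.49 to 77.3 CPM) and Elf5 (0.336 to 29.99 CPM) were at no more than 0.253 CPM in digestive libraries.

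Other factors in this list stood high in only one of these tissues. Aire, which drives self-antigen expression in thymic epithelium, averaged 219 ± 43.8 CPM in thymus and 1.57 ± 2.71 in trachea. Foxn1 (165 ± 29.2 CPM) and Fezf2 (279 ± 29.6 CPM) were likewise at 0.185 CPM or less in trachea. Nkx2-1, the lung and trachea factor, was at 101 to 244 CPM in trachea and at most 0.317 in thymus, and Sox2 at 20.6 to 71.8 CPM against 0.442 to 1.185 in thymus. Foxe1 was at 104 ± 14.9 CPM in trachea and 11.6 ± 5.58 in thymus, and gall bladder exceeded both at 136 ± 58.9 while small intestine and colon were at most 0.727.

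**Figure D4:**
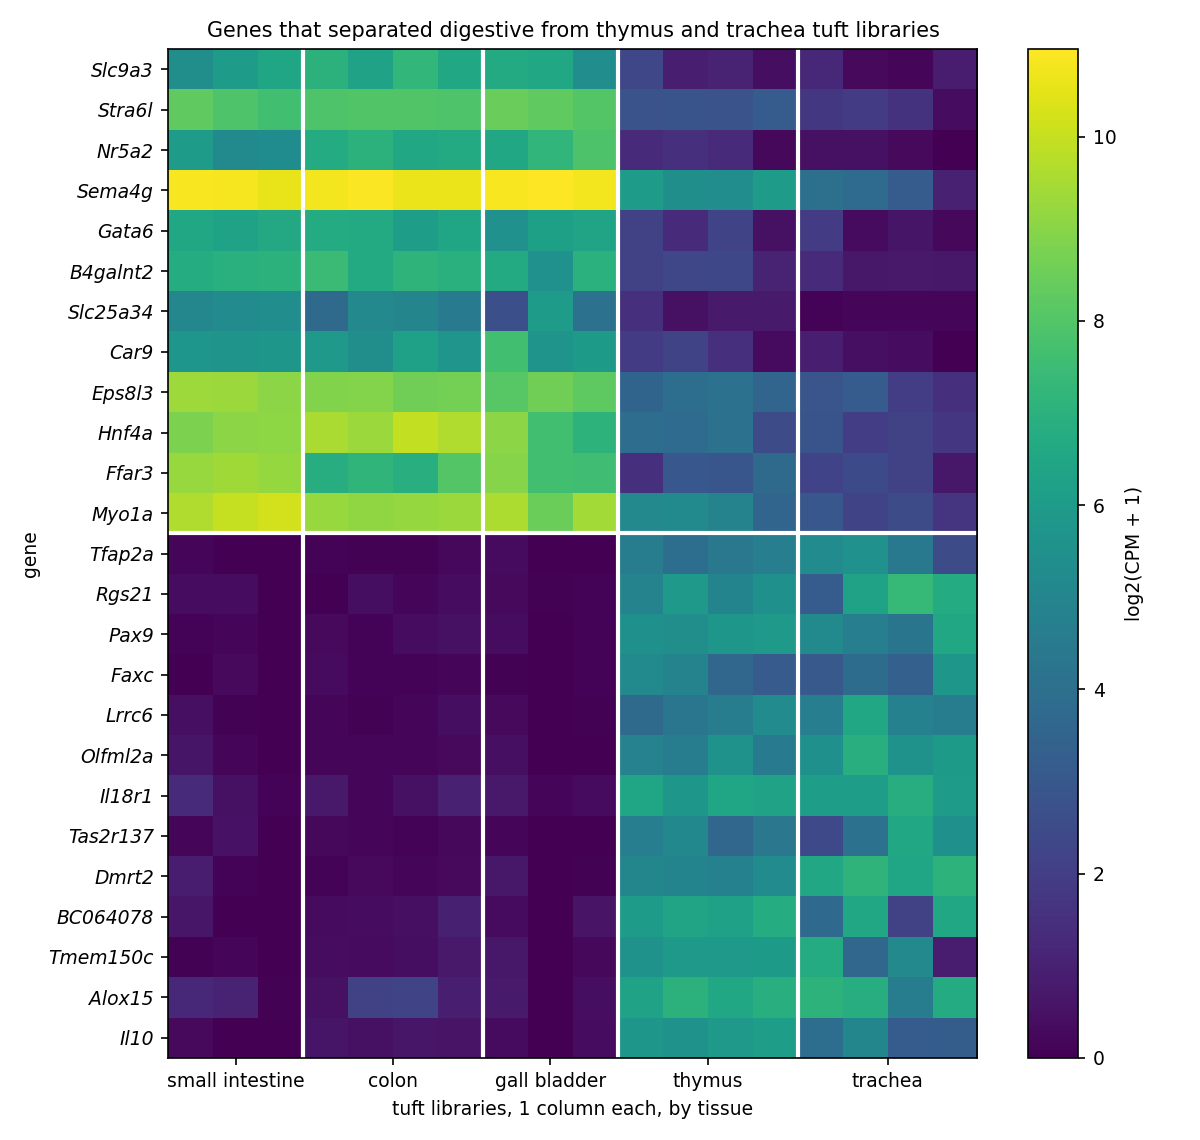
The 12 higher and 11 lower genes named by the rule, then Alox15 and Il10, in the 18 tuft libraries (columns, by tissue); colour is log2(CPM + 1). Rows above the horizontal line are bright in digestive libraries and dark in thymus and trachea, and rows below it are the reverse, with uneven trachea columns for BC064078 and Tmem150c.

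Among the lower genes not yet described, Olfml2a, an extracellular matrix glycoprotein gene, had 21.3 to 48.0 CPM in thymus and 43.5 to 121 in trachea, and at most 0.541 in digestive libraries. Lrrc6, an assembly factor of ciliary dynein arms, had 12.8 to 38.05 and 23.3 to 95.0 against at most 0.361. Faxc had 7.72 to 35.3 and 7.33 to 54.0 against at most 0.231. These 3 genes were present in every thymus and trachea library. BC064078 (63.0 to 109 CPM in thymus) and Tmem150c (47.3 to 61.7 in thymus) varied more in trachea, from 3.46 to 94.6 and from 0.777 to 106.

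The cytoskeleton of the brush border and the type of keratin differed too. Of 16 simple epithelial keratin and adhesion genes, 10 were called higher and none lower, 4 of them in all pairs (median 1.77). Of 20 tested stratified keratin and desmosome genes, 12 were called lower and 1 higher (median -3.25). Myo1a, the brush border myosin, had 356 to 1160 CPM in digestive libraries, 10.96 to 36.3 in thymus and 2.19 to 6.74 in trachea (5.95 ± 0.29 log2, SE; edgeR adjusted p = 3.1e-11). Eps8l3, a relative of the microvillar actin regulator Eps8, had 658, 630 and 534 CPM in small intestine, 472, 478, 377 and 404 in colon and 275, 379 and 300 in gall bladder, against at most 16.1 elsewhere. Vil1 (villin) averaged 2352, 1022 and 613 CPM against 121 and 44.0, the tracheal mean being raised by replicate 3 at 136 CPM. The lectin Lgals4 (1539, 1370 and 460 CPM against 29.9 and 17.8) and the tight junction gene Cldn3 (352, 235 and 225 against 68.8 and 44.8) were higher in all pairs. Krt18 ran from 2291 to 14830 CPM in digestive libraries against 818 to 1463 in thymus and trachea, and non-tuft cells had 830 CPM. Its partner Krt8 was higher in 4 of 6 pairs (1.38 ± 0.18 log2). Krt5, the keratin of basal cells, had 650, 552, 673 and 612 CPM in thymus and 118, 76.3, 7.27 and 8.90 in trachea, and at most 5.53 in digestive libraries. Krt4 averaged 9.93 and 16.9 CPM against at most 0.228. The integrin gene Itgb4 was the stratified-list member called higher, in all 6 pairs (1.54 ± 0.19 log2).

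Class II antigen presentation was a thymus difference. Of 15 genes 12 were called lower in digestive tuft, none in all 6 pairs (median -2.72). H2-Aa averaged 1245 ± 146 CPM in thymus and 1.07 ± 0.892 in trachea, and Cd74, the class II chaperone, 4571 ± 960 and 4.86 ± 4.05. In colon the same genes were at 31.9 ± 18.3 and 257 ± 191 CPM, above trachea. Of 25 interferon-stimulated genes 3 were called higher and 10 lower (median -0.20), and the sensor Oas2 was the 1 member called higher in all pairs, with 738, 749 and 762.3 CPM in small intestine, 186 to 410 in colon and 122 to 205 in gall bladder against 7.86 to 81.6 elsewhere. Of 26 proliferation genes 13 were called higher and none lower (median 2.11). Summed, they stood at 685 to 984 CPM in small intestine and 1463 to 2097 in colon, but at 89.7 to 166 in gall bladder, against 114 to 198 in thymus and trachea. Of 22 dissociation stress genes 3 were called each way (median 0.24), and their summed levels were 6994 to 8227 CPM in small intestine, 21030 to 25410 in colon, 11430 to 26530 in gall bladder, 8126 to 9190 in thymus and 10770 to 16090 in trachea.

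Of the 40 tuft core genes, which share members with the taste, lipid enzyme and receptor lists, 8 were called higher and 9 lower (median 0.20). Siglecf, a sialic acid-binding lectin, was the member higher in all pairs: it had 1036 ± 47.5 CPM in small intestine, 144 ± 33.7 in colon and 318 ± 174 in gall bladder against 17.6 ± 3.86 in thymus and 5.65 ± 2.84 in trachea, and 11.9 in non-tuft cells (5.11 ± 0.29 log2, SE; edgeR adjusted p = 2.2e-10). Sh2d6 (1.69 ± 0.15), Nrgn (1.71 ± 0.28), Plcg2 (1.53 ± 0.17) and Gfi1b (1.76 ± 0.31) were called higher on average and in 4 of 6 pairs each, and for the first 3 neither colon pair was called. For Nrgn colon stood at 72.1 ± 18.3 CPM and thymus at 102 ± 32.9. Pou2f3 was called lower (-1.12 ± 0.15 log2), with trachea highest at 1076 ± 268 CPM and colon lowest at 188 ± 21.2. It was under the fold required without colon (-0.66 log2), against thymus alone (-0.59 log2) and without gall bladder replicate 1 (-0.996 log2), and gall bladder against thymus gave -0.47 log2 (edgeR adjusted p = 0.161). Avil (0.54 ± 0.12) and Dclk1 (0.11 ± 0.12) were not called. Avil was called higher without colon (1.47 log2), and both were called higher in gall bladder against thymus (1.32 and 1.74 log2). Ptprc, which encodes the CD45 that the sort excluded at the surface, was at 80.5 to 169 CPM in digestive libraries and 9.41 to 100 in the others (1.201 ± 0.31 log2, SE; edgeR adjusted p = 0.0051; 0.87 with library totals only and 0.99 against thymus alone, not called in either), and Epcam was not called (0.57 ± 0.12).

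The 196 genes higher in every digestive tissue were also divided by their level in non-tuft small intestine. The same division was not made for all genes tested, so these numbers have no background share. For 93 of them the non-tuft mean was at or above the lowest digestive tuft mean, as for Hnf4a, Car9, B4galnt2 and Entpd8, and for 84 it lay between the sides. For 19 it was at or below the higher of the thymus and trachea means. Besides Ffar3, P2rx1, Siglecf, Krt18 and Oas2, these included the ficolin gene Fcna (36.6 to 134 CPM in the digestive means, 1.68 in non-tuft cells) and Col15a1, a basement membrane collagen gene (100 to 885 CPM against 3.56). Fcna was less even, since trachea replicate 3 had 15.9 CPM against 18.8 in the lowest colon library. The reference came from small intestine alone, so the same comparison for colon and gall bladder was not tested. Its goblet markers summed to 104300 to 114400 CPM, and the place of a gene in this division depends on the cells that the reference held. Of the 396 genes lower in every digestive tissue, the non-tuft mean was under 1 CPM for 269, and all 10 digestive libraries were under 1 CPM for 211.

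Markers of neighbouring cells are given beside these results. The 10 airway secretory markers were all called lower (median -6.70), with sums of 33040 to 139300 CPM in trachea, 439 to 1023 in thymus and 13.6 to 749 in digestive libraries. Scgb1a1, the club cell secretoglobin, was at 8231 to 54940 CPM in trachea and at 250 in gall bladder replicate 1, and Bpifa1 at 10240 to 36130 CPM in trachea and 159 in that library. All 10 basal cell markers were called lower, 5 of them in all pairs (median -6.59), with sums of 1389 to 1430 CPM in thymus, 358 to 995 in trachea and 0.107 to 25.7 in digestive libraries. Of 15 airway ciliated markers 11 were called lower (median -4.09), but their sum was highest in gall bladder (630 to 704 CPM, against 250 to 367 in thymus and 75.8 to 271 in trachea). There the dynein gene Dnah5 stood at 565 to 595 CPM while Foxj1, the ciliary master factor, was at 2.63, 44.4 and 90.1. Of 14 thymic epithelial markers 11 were called lower (median -3.66), with sums of 2602 to 3225 CPM in thymus, 105 to 144 in trachea, 412 to 453 in small intestine, 133 to 196 in colon and 62.6 to 142 in gall bladder.

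On the digestive side, 17 of 20 enterocyte markers and 8 of 10 colonocyte markers were called higher, and 0 and 1 lower (medians 2.51 and 4.49). Enterocyte sums were 36870 to 42650 CPM in small intestine tuft, above the non-tuft reference at 21280 to 22850, but 980 to 1236 in colon and 449 to 1315 in gall bladder, near thymus (325 to 573) and trachea (365 to 930). That reference was rich in secretory markers, with sums of 104300 to 114400 CPM for goblet, 12580 to 16690 for Paneth and 11480 to 16240 for enteroendocrine markers. Small intestine tuft had 2152 to 2656, 136 to 531 and 525 to 1339 CPM of these. The reference level is therefore not the level of enterocytes. The disaccharidase Sis was at 1038 to 1642 CPM in small intestine and at most 17.3 in any other tuft library. Mgam (79.4 to 609 CPM in the digestive means against 12.6 and 3.31) and the colonocyte genes Car4 (59.4 to 1205 against 13.5 and 2.37) and Muc3 (170 to 3542 against 32.8 and 17.7) were higher in all pairs. Goblet (4 of 12 higher, none lower), Paneth (1 of 11 higher, 1 lower), enteroendocrine (4 of 19 higher, 1 lower) and biliary markers (4 of 12 higher, 2 lower) moved less. Among cells outside the epithelium, 3 of 14 T cell, 4 of 7 B cell, 2 of 13 myeloid, 4 of 10 fibroblast, 2 of 5 endothelial and 1 of 5 erythroid markers were called lower and 1 T cell marker higher. Myeloid sums were 1751 to 3926 CPM in trachea through Lyz2 (1742 to 3820 CPM), which airway secretory cells are also known to express, 256 to 309 in thymus and 21.3 to 142 in digestive libraries. The part of neighbouring cells in the gene differences was not tested.

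**Figure D5:**
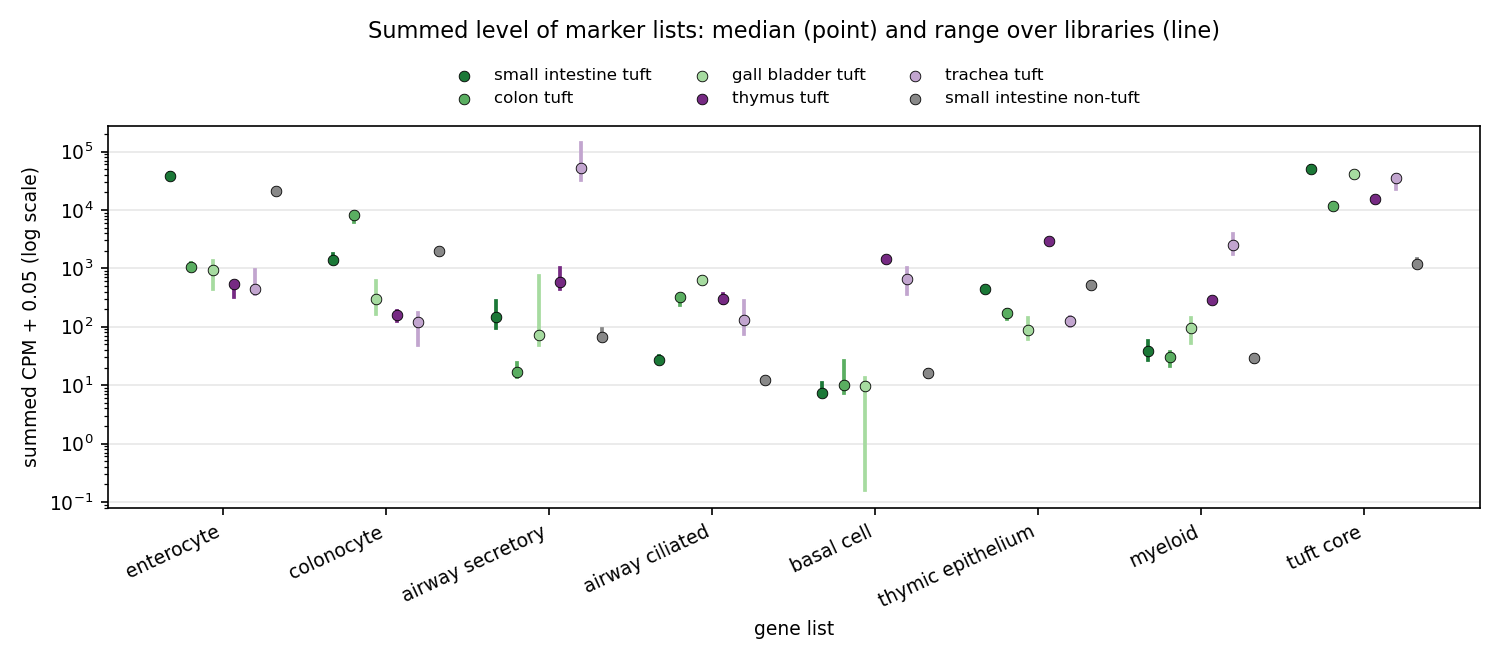
Summed CPM of marker lists in each group, as the median (point) and range over libraries (line), with 0.05 added on a log scale. Airway secretory markers peak in trachea, basal markers in thymus and trachea, and enterocyte markers in small intestine tuft and non-tuft cells. Tuft core genes are higher in each of the 5 tuft groups than in non-tuft cells. Among the 5, colon is lowest (10210 to 13370 CPM) and small intestine highest (45690 to 56550 CPM).

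Low values on the digestive side moved together by library. Of the 396 genes lower in every digestive tissue, 75, 97 and 207 had no count in small intestine replicates 2, 3 and 4, 50, 53, 59 and 25 in colon replicates 1 to 4, and 37, 242 and 109 in gall bladder replicates 1, 3 and 4. Only 2 of the 396 had no count in all 10. Median levels of these genes ran from 0 to 0.323 CPM. The cause was not tested.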

How the data were processed

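RNA of sorted cells was amplified with NuGEN Ovation V2 and sequenced as Nextera XT libraries. The labels' protocols name no molecular identifiers. The deposited table holds whole-number counts per gene, made by the authors with STAR on GRCm38, with DESeq2 also listed, per the submitters' processing notes. No source used here gives the counting step, strand setting or annotation, so reads of overlapping, antisense or near-identical genes could not be told apart. Per the labels, the study left out 1 replicate for quality in each of 3 groups: non-tuft cells and tuft cells of gall bladder and small intestine. Of 43432 gene IDs, 42548 matched GENCODE M21, which gave names and GRCm38 coordinates.

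From these counts, edgeR 4.0.16 in R 4.3.3 (filterByExpr, TMM, quasi-likelihood F test, two-sided) fitted the 18 tuft libraries in 5 groups that share 1 estimate of spread. The standard error of a log2 fold change was computed from its F statistic. Adjusted p-values are over all 19850 genes tested. Levels are CPM with TMM factors over all 21 libraries, as mean ± SD. Genes were named when called in the averaged contrast and all 6 pairs, with no overlap of libraries and at least 20 CPM in each tissue of the higher side, ranked by their smallest pair, the first 12 each way, of which 1 lower gene is not reported here. Not ranked were predicted genes, Rik clones, Xist, genes on Y and segments of antigen receptors. Ffar3, Alox15, Il10 and members of 41 gene lists could also be named. The comparison, its members and lists were chosen with earlier results of these data known.

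Alternatives were DESeq2 1.42.0, limma 3.58.1 (voom with sample weights), other scalings and filters, a replicate block, leaving out libraries or tissues, and single tissues. Removing mitochondrial transcripts was added after seeing the data. On simulated counts of this design (19297 genes, 200 of them changed), the test called 21% of genes changed by 4 times and 4% of those changed by 2 times, and 1 of its 26 calls was an unchanged gene. The simulation held no differences between tissues within a side, and changed far fewer genes than were called in the data. Its rates are therefore not the sensitivity of the reported contrast. Each library is 1 mouse or 1 trachea pool. Replicate numbers were not used to pair the samples in the main test. Figures were drawn with matplotlib 3.10.9.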

Additional observations from a re-analysis of the deposited data

Results flagged for a closer look

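The 25 genes named by rule or as markers were examined in the 3 groups of 4 libraries, 75 groups in all, and in 7 of them 1 library stood far from the other 3. For normally distributed values, chance alone marks about 1 in 20 such groups. CPM was examined without a log scale and can be skewed to high values, so that rate need not apply here. In each the library that stood apart was the highest. Trachea pools made up 5 of the 7.

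On the high side of the comparison, Faxc was at 54.0 CPM in trachea replicate 4 against 7.33, 13.8 and 9.31 in the other pools. Lrrc6 was at 95.0 CPM in trachea replicate 2 against 24.8, 27.2 and 23.3. Il18r1 was at 113 CPM in trachea replicate 3 against 67.0, 68.3 and 65.5. The pool that stood apart differed between these genes, and each gene stayed far above its digestive levels in every pool.

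On the low side, Stra6l was at 8.16 CPM in thymus replicate 4 against 5.98, 6.17 and 6.01. Trachea replicate 1 was highest for Gata6 (2.84 CPM against 0.251, 0.557 and 0.177) and for B4galnt2 (1.57 CPM against 0.612, 0.680 and 0.635). Tmem150c was at 0.666 CPM in colon replicate 4 against 0.278, 0.247 and 0.316.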

How the results depend on the processing

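The 25 named genes kept direction and call in 875 of 875 refits under 35 settings; since all of them were called in all 6 pairs, which several settings use again, this follows in part from the choice. The 4 counts moved. Treating the 10 digestive and 8 other libraries as 2 groups left 1419 genes higher and 1596 lower, and thymus alone as reference left 1480 higher. With library totals only, 127 genes were higher in every digestive tissue. Dropping colon gave 333, and dropping gall bladder 575 higher and 870 lower; fewer pairs had to pass there. DESeq2 gave 610 lower. Leaving out 1 replicate at a time gave 1997 to 2458 higher, 3375 to 3926 lower, 159 to 225 higher in every tissue and 278 to 410 lower. With the replicate block these were 2173, 3298, 182 and 332. Same-numbered libraries of different tissues deviated together with r of -0.023 to 0.132 (median 0.009), against -0.075 to 0.038 (median -0.005) for other numbers. Colon and thymus libraries were at 0.065 to 0.079 with the same number and at -0.05 to 0 with other numbers. Small intestine and trachea were at 0.044 to 0.132 against -0.075 to 0.035. In the other tissue pairs, same and other numbers overlapped. The main test did not pair libraries by number. Without mitochondrial transcripts 2314 genes were higher and 3759 lower.

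Among named genes called in the averaged contrast, the fitted sign of 13 differed when tissues were taken alone or dropped. Gall bladder against thymus, tissues with similar numbers of sorted cells, gave 1.75 for Casr, -1.88 for Cdx2, 3.48 for Foxe1, 1.545 for Gng13, -4.69 for Hoxb13, 0.92 for Nkx2-1, -1.75 for Sis and -1.02 for Vdr (log2 fold changes); those of Cdx2, Nkx2-1 and Sis did not pass the test (edgeR adjusted p = 0.266, 0.756 and 0.208). The digestive mean against trachea alone gave 2.87 for Cd74, 1.22 for Fezf2, 1.129 for Foxn1, 2.61 for H2-Aa and 0.024 for Il13, where Fezf2, Foxn1 and Il13 did not pass (edgeR adjusted p = 0.206, 0.462 and 1). Without small intestine Sis was at -0.43 (edgeR adjusted p = 0.73). Genes not called in the averaged contrast are not among the 13. Some of them also changed sign between settings, such as Alox5 (-0.395 to 1.327 log2) and Itpr3 (-1.154 to 0.856 log2). Of the other gene refits 3993 kept their call, 50 lost it and 32 gained one. With limma voom the calls of Cd74, H2-Aa, Scgb1a1 and Sis were lost (adjusted p = 0.385, 0.101, 0.135 and 0.231). The cause was not tested. Genes under about 1 CPM on one side rest on few counts, which limits the precision of their fitted folds.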
